A study of Mus musculus with 24 samples.

Results

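The neutrophil granule, alarmin and surface genes are 7 of the 770 genes on a NanoString panel read in transplanted mouse mammary tumours. They were chosen by name: the alarmin S100a8, the granule genes Lcn2, Ltf and Camp, and the surface receptors Trem1, Clec5a and Fpr2. S100a8 encodes a subunit of calprotectin, a calcium-binding protein that fills the neutrophil cytosol. Lcn2 (lipocalin 2, which binds bacterial siderophores), Ltf (lactoferrin, which binds iron) and Camp (cathelicidin, an antimicrobial peptide precursor) are products of the secondary granules. Lcn2 is also made by epithelial cells, mammary carcinoma included. Trem1 and Clec5a are activating receptors of myeloid cells that signal through the adaptor Tyrobp, and Fpr2 is a formyl peptide receptor that guides neutrophils. Granule genes are transcribed mostly while neutrophils mature in the marrow, whereas S100a8 and the receptors are also transcribed by circulating neutrophils and monocytes.

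NT2.5 cells, a line derived from a spontaneous mammary tumour, were implanted in the mammary fat pad of female FVB neu-N mice at 7 to 8 weeks of age, and treatment ran for 3 weeks from day 3. Entinostat (ENT), an oral inhibitor of class I histone deacetylases, was given daily at 5 mg/kg, and antibodies to PD-1, CTLA-4 or HER2 at 100 µg per mouse. The arms were ENT+CTLA4+HER2 (n = 2), ENT+PD1+CTLA4 (n = 4), ENT+CTLA4 (n = 4), ENT+PD1 (n = 4), a further ENT+PD1 pair whose titles repeat those of replicates 1 and 2 (the repeat-titled pair, n = 2), ENT (n = 4) and vehicle (n = 4). Vehicle mice received isotype antibodies and methylcellulose. No arm received an antibody without entinostat, and the titles alone place anti-HER2 in 1 arm while the protocol says that studies were run with and without it. The labels name whole tumours but their protocol ends with isolation of immune cells. All 24 samples carried both the epithelial gene Epcam, at 3778 or more, and the myeloid gene Lyz2, at 1773 or more, on the deposited scale. The labels do not say that samples of an arm came from separate animals, so p-values measure the spread between these samples.

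The samples ran on 2 cartridges, per the file headers. ENT+CTLA4+HER2, ENT+PD1+CTLA4, ENT+CTLA4 and the repeat-titled pair shared the second, and ENT+PD1, ENT and vehicle the first, so between these blocks treatment and cartridge are joined only by the ENT+PD1 name. Fits with the cartridge as a block take the repeat-titled pair as further ENT+PD1 samples, which the labels do not settle. Without that step treatment and cartridge cannot be told apart. Total recovered counts ran from 226863 to 483418, and the lowest belonged to ENT+CTLA4+HER2 replicate 1. Values below are the deposited signal, scaled by the authors to the same housekeeping mean in each sample, and log2 changes are on the log2(value + 1) scale. Of 770 genes, 621 reached a value of 20 in 4 or more samples and were tested with limma. All 7 members were among them, but Camp only through 4 samples and Ltf through 14. A negative-control limit, the mean of the control probes plus 2 SD, was exceeded in 24 of 24 samples by S100a8, Lcn2, Trem1 and Clec5a. It was exceeded in 22 samples by Fpr2, in 22 by Ltf and in 5 by Camp. In bulk RNA, fewer cells of a type and less RNA per cell cannot be told apart.

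Promoters are printed for S100a8, Fpr2 and Camp, which peaked in the same sample, and for Lcn2, which peaked in another. C/EBP and PU.1 are transcription factors of granulocyte development, and their core motifs were searched on both strands as TTNNGNAA and GAGGAA, 250 bases before to 50 after the annotated start (RefSeq, GRCm38.p6, the build of the sequence table). Capitals mark the matches, no 2 of which overlapped in these 4 windows.
S100a8 promoter, chr3:90668821-90669120, plus strand: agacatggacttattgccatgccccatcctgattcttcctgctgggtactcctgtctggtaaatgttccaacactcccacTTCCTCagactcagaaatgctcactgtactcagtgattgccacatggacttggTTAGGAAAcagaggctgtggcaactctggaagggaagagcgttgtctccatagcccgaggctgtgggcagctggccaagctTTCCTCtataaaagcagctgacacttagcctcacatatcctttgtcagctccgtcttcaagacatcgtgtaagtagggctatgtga
Fpr2 promoter, chr17:17887574-17887873, plus strand: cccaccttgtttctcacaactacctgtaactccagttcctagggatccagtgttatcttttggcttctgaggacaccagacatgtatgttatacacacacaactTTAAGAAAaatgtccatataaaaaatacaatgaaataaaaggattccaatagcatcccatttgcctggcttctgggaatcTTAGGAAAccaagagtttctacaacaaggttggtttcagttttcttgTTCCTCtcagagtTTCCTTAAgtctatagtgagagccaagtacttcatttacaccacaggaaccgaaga
Camp promoter, chr9:109849407-109849706, minus strand: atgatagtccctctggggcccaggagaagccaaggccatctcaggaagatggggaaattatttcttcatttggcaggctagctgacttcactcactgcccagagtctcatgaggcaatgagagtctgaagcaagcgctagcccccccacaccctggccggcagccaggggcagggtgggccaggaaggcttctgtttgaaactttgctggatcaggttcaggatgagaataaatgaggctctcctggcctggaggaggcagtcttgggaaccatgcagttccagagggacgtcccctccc
Lcn2 promoter, chr2:32387690-32387989, minus strand: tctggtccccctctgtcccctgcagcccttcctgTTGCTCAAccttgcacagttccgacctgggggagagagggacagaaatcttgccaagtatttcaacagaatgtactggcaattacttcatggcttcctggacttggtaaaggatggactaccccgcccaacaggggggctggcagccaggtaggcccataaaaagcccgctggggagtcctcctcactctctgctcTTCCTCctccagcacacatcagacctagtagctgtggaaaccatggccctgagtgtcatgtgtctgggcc
The C/EBP letters occurred in 6 of the 7 members' windows and in 40.7% of the 32851 promoters of the table, and the PU.1 letters in 6 of 7 and in 28.3%. In S100a8 the C/EBP match began at −117 and PU.1 matches at −170 and −36 from the start. Fpr2 held C/EBP matches at −146, −66 and −6 and a PU.1 match at −19. Lcn2 held 1 of each, at −216 and −20, and the Camp window held neither. The κB motif was searched on both strands as the single pattern GGGRNWYYCC. These letters were in 0 of the 7 windows and in 4.51% of all.

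S100a8 was the only member with a limma call, and that in 1 comparison. Its values were 11838 and 1607 in ENT+CTLA4+HER2, against 328, 629, 2776 and 578 in ENT+PD1+CTLA4 and 989, 961, 669 and 1555 in ENT+CTLA4. Both anti-HER2 samples thus lay above every ENT+CTLA4 sample, while 1 of them lay below the highest ENT+PD1+CTLA4 sample. On the first cartridge S100a8 read 565, 523, 903 and 671 in ENT+PD1, 333, 336, 357 and 491 in ENT, and 514, 422, 586 and 575 in vehicle. The repeat-titled pair stood at 412 and 1032. Every ENT+PD1 sample was above every ENT sample, and ENT and vehicle overlapped.

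**Figure D1:**
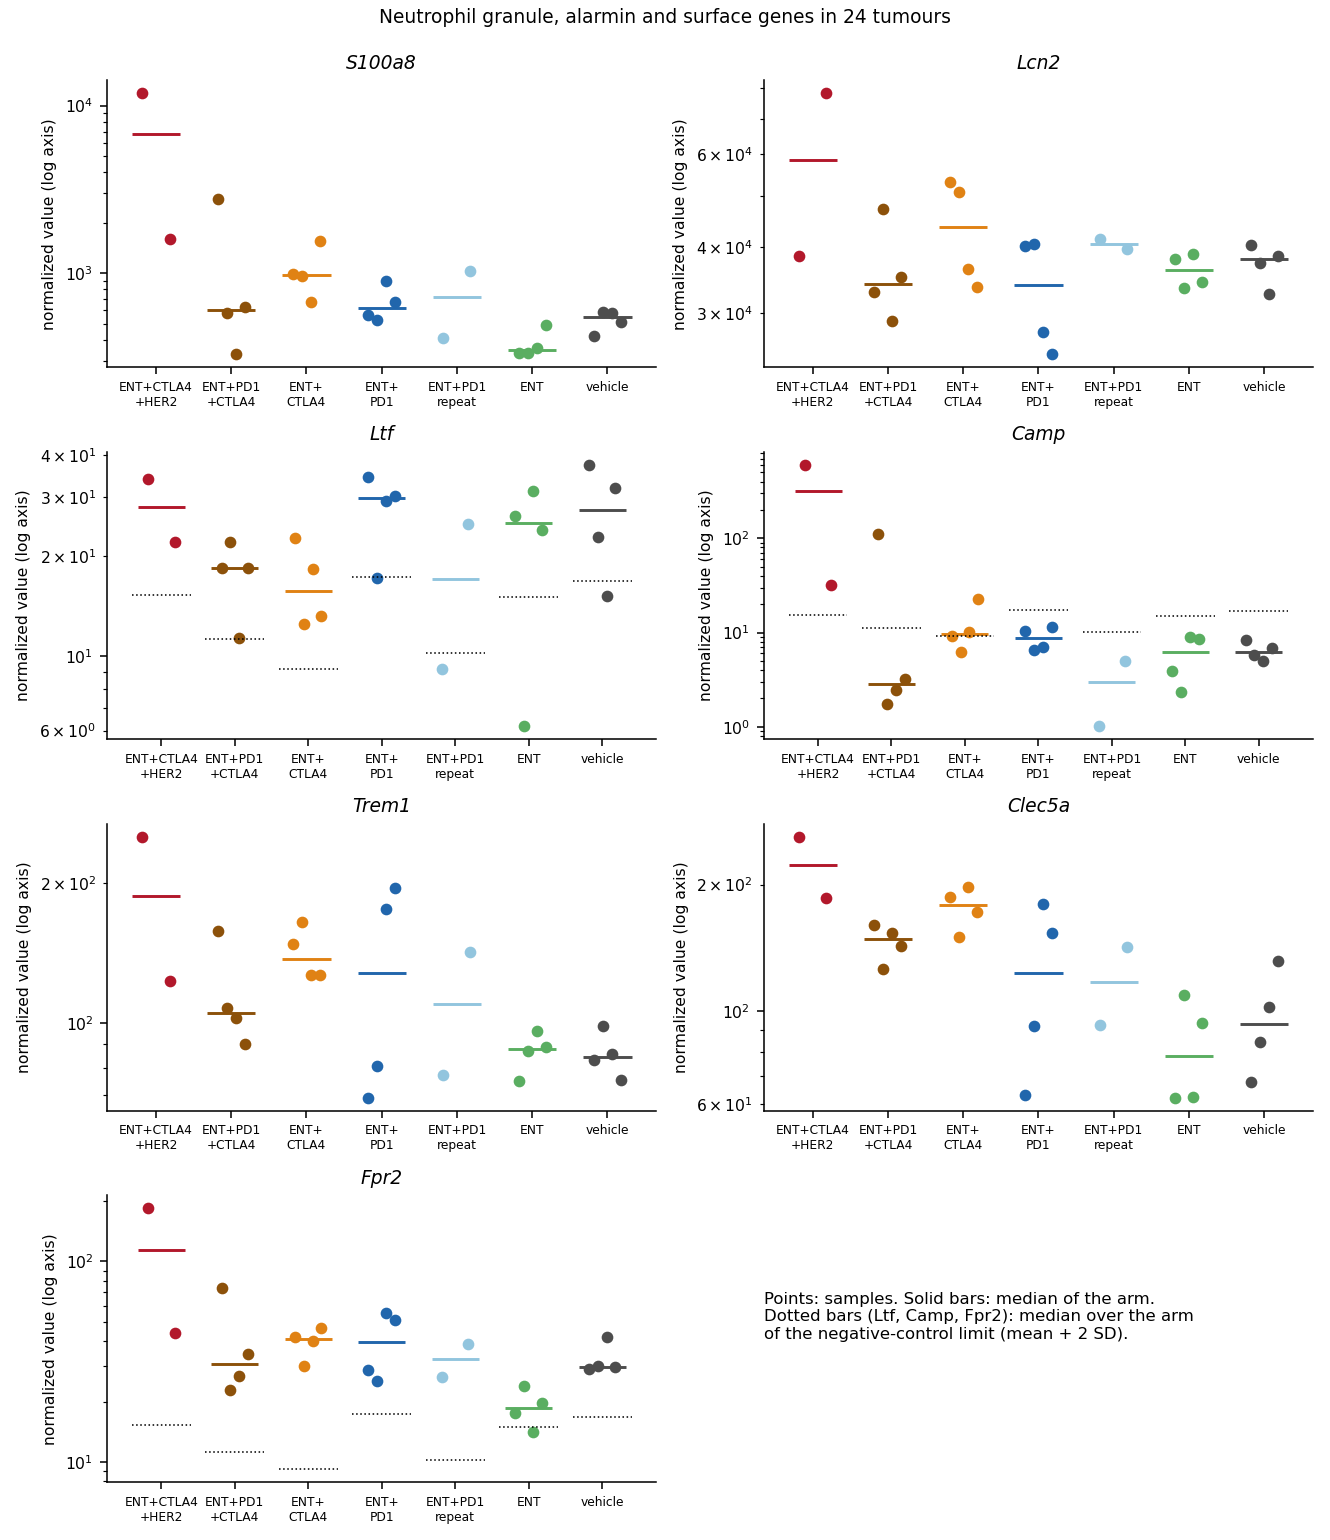
Normalized value (log axis) of each of the 7 genes in 24 samples, by arm; points are samples, solid bars arm medians, and dotted bars the arm's median negative-control limit for the 3 weaker genes. S100a8, Camp and Fpr2 peak in the same ENT+CTLA4+HER2 sample, at 11838, 600 and 184, Lcn2 peaks in the other at 78151, and most Camp points lie under the dotted bars.

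The neutrophil antimicrobial Camp showed the widest range of the members, with 1 of the 621 tested genes having a larger SD of log2 values over the samples. Camp read 600 and 32.3 in ENT+CTLA4+HER2, against 2.44, 3.24, 110 and 1.76 in ENT+PD1+CTLA4 and 9.23, 6.25, 10.0 and 22.5 in ENT+CTLA4. Its highest values elsewhere were 11.4 in ENT+PD1, 4.98 in the repeat-titled pair, 9.08 in ENT and 8.30 in vehicle. No sample of these last 4 arms exceeded its negative-control limit, so Camp was measured above background in 5 samples, all on the second cartridge. The limit itself was lower there, from 8.54 to 16.9, against 10.8 to 25.3 on the first. ENT+CTLA4 replicate 1 thus counted as above at 9.23 (limit 8.58), and ENT+PD1 replicate 6 as below at 11.4 (limit 14.3).

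Fpr2 had the same peak. It read 184 and 43.9 in ENT+CTLA4+HER2, against 26.8, 34.6, 73.5 and 22.9 in ENT+PD1+CTLA4 and 42.1, 30.2, 40.2 and 46.6 in ENT+CTLA4. Replicate 2 of the anti-HER2 arm therefore lay inside the range of both other anti-CTLA-4 arms. On the first cartridge Fpr2 read 28.7, 25.3, 55.0 and 50.9 in ENT+PD1, 17.5, 24, 14.1 and 19.6 in ENT, and 29.7, 29.1, 30.0 and 42.0 in vehicle. All 4 ENT samples were below all 4 vehicle samples and below all 4 ENT+PD1 samples. ENT replicates 1 and 3, at 17.5 and 14.1, were the 2 samples in which Fpr2 did not exceed its negative-control limit, so the ENT level is partly background.

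Clec5a and Trem1, the Tyrobp-coupled receptors, were tighter. Clec5a read 260 and 186 in ENT+CTLA4+HER2, 153, 143, 160 and 126 in ENT+PD1+CTLA4 and 187, 150, 197 and 172 in ENT+CTLA4. It read 63.2, 92.3, 180 and 154 in ENT+PD1, 62.2, 109, 62.5 and 93.7 in ENT, and 131, 67.8, 84.2 and 102 in vehicle. No ENT+CTLA4 sample overlapped ENT or vehicle, and the ENT+PD1 arm was split, replicates 5 and 6 reading highest. Trem1 read 251 and 123 in ENT+CTLA4+HER2, 89.8 to 158 in ENT+PD1+CTLA4, 127 to 165 in ENT+CTLA4, 68.9 to 195 in ENT+PD1, 74.8 to 95.8 in ENT and 75.4 to 98.4 in vehicle. ENT+PD1 split in Trem1 as in Clec5a, with 68.9 and 80.8 in replicates 1 and 2 and 176 and 195 in replicates 5 and 6.

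Lcn2 took between 5.39 and 19.4% of a sample's counts. It averaged 58298 ± 28076 in ENT+CTLA4+HER2 (SD, n = 2), 36014 ± 7843 in ENT+PD1+CTLA4, 43479 ± 9963 in ENT+CTLA4, 33352 ± 8188 in ENT+PD1, 36106 ± 2595 in ENT and 37169 ± 3278 in vehicle (SD, n = 4 each). The 2 anti-HER2 samples read 38446 and 78151, with the higher Lcn2 value in replicate 2, where S100a8, Camp and Fpr2 were the lower. Ltf, the iron-binding granule protein, ran from 6.19 to 37.4 over all samples, averaging 28.0 ± 8.51 in ENT+CTLA4+HER2 (SD, n = 2), 17.5 ± 4.46 in ENT+PD1+CTLA4, 16.6 ± 4.72 in ENT+CTLA4, 27.7 ± 7.42 in ENT+PD1, 21.9 ± 10.9 in ENT and 26.8 ± 9.85 in vehicle (SD, n = 4 each). The scaled negative-control mean averaged 4.69 in ENT+CTLA4 and 9.36 in vehicle, so the background also differed between cartridges in the range of Ltf; its part in these values was not tested.

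By arm median, ENT+CTLA4+HER2 came first for every member except Ltf, which was highest in ENT+PD1, and ENT+CTLA4 came next for those 6. For Camp the order below the first arm is one of values mostly under their limits. Vehicle and ENT were the lowest 2 arms for S100a8, Trem1, Clec5a and Fpr2. Neighbouring arms in these orders mostly overlapped: of 6 neighbouring pairs per gene, 1 pair did not overlap for S100a8, 1 for Camp and 1 for Fpr2, and all 6 overlapped for Lcn2, Ltf, Trem1 and Clec5a. The pairs that did not were ENT+CTLA4+HER2 above ENT+CTLA4 for S100a8 and Camp, and vehicle above ENT for Fpr2. Of all tested genes, 22.5% did not overlap in the first way and 5.96% in the second, so such gaps are not particular to these genes.

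The arm given anti-HER2 was compared within the second cartridge, against each of the other anti-CTLA-4 arms. S100a8 rose 5.74-fold in ENT+CTLA4+HER2 relative to ENT+PD1+CTLA4 (log2 change 2.52 ± 0.66 SE, limma Benjamini-Hochberg adjusted p = 0.0451). In that comparison 3.06% of tested genes were called. EdgeR kept the call. It ended without ENT+CTLA4+HER2 replicate 1, where the log2 change was 1.08 with an adjusted p of 0.491 by limma and the arm is 1 sample, assumed to vary like the other arms. It also ended with each of ENT+PD1+CTLA4 replicates 2, 5 and 6 left out, and under either median rescaling or quantile normalization. Each of the 6 members other than Camp had a positive log2 change, with a median of 0.65 against 0.18 over all tested genes. Fpr2 differed by 1.32 ± 0.48 and Lcn2 by 0.63 ± 0.27 on the log2 scale, with limma adjusted p-values of 0.130 and 0.209. For Camp no difference is given, since 3 of the 4 ENT+PD1+CTLA4 values were under their limits and the gene passed the filter through its high samples. Lcn2 turned to −0.08 under quantile normalization. Clec5a was higher in both anti-HER2 samples than in all 4 of ENT+PD1+CTLA4, like 18.4% of tested genes. S100a8, Fpr2 and Lcn2 stood at a limma unadjusted p under 0.05 in the higher direction, beside 15.1% of all tested genes. Camp is left out here for the reason given above.

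Against ENT+CTLA4, S100a8 differed by 2.13 ± 0.66 and Fpr2 by 1.18 ± 0.48 on the log2 scale in ENT+CTLA4+HER2, with limma adjusted p-values of 0.0858 and 0.177. No member was called, while 2.25% of tested genes were. Camp exceeded its limit in both anti-HER2 samples and in 2 of the 4 ENT+CTLA4 samples, so its values stand without a fitted difference. S100a8 was higher in both anti-HER2 samples than in all 4 ENT+CTLA4 samples, a pattern that 22.5% of tested genes shared. Camp was so too, but it passed the filter through its high samples. The log2 change of S100a8 was 0.69 without ENT+CTLA4+HER2 replicate 1 and 3.57 without replicate 2. Lcn2 differed by 0.36 ± 0.27 and Clec5a by 0.32 ± 0.34, neither of them called.

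**Figure D2:**
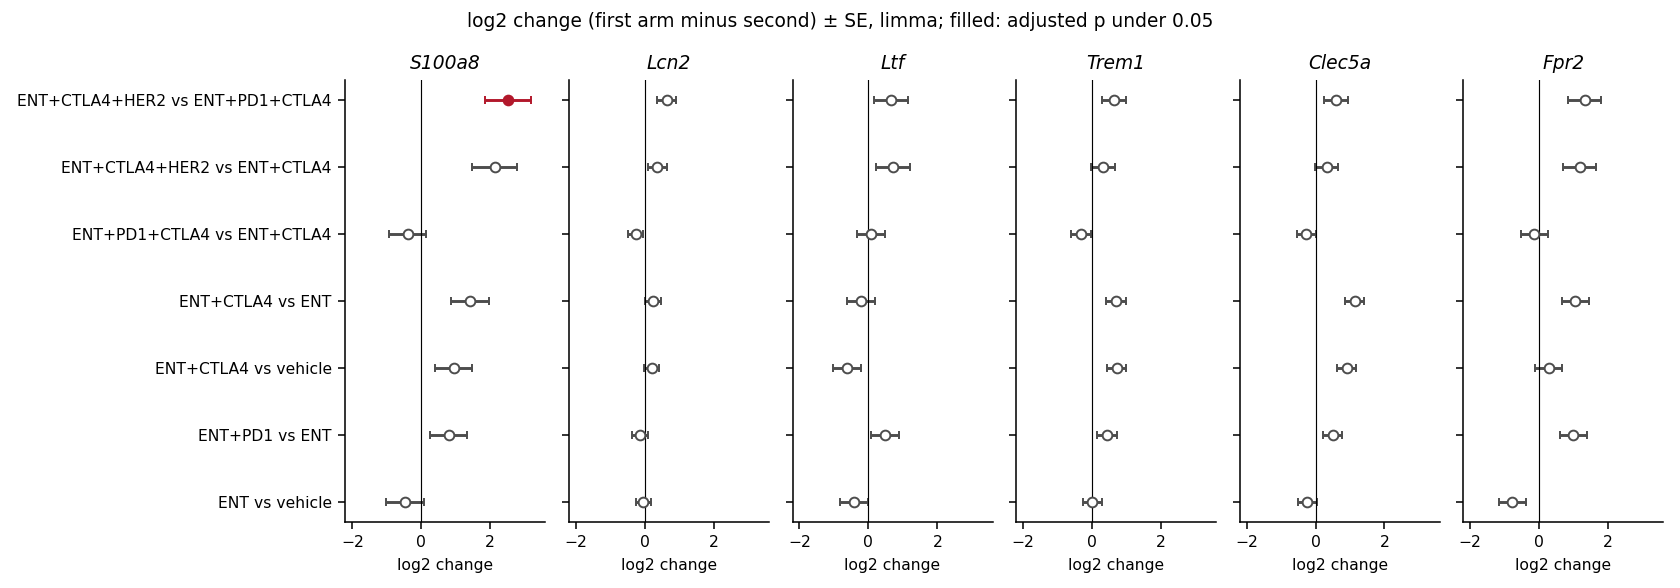
Log2 change (first-named arm minus second) with its SE from limma for each member other than Camp in 7 comparisons; the upper 3 and the lower 2 lie within a cartridge. The single filled point, S100a8 in ENT+CTLA4+HER2 against ENT+PD1+CTLA4 at 2.52 ± 0.66, is the only one with an adjusted p under 0.05.

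The 2 anti-HER2 samples stood at different heights in these genes. Replicate 1 was the highest of all 24 samples in 5 of the 7 members, S100a8, Camp, Trem1, Clec5a and Fpr2, whereas it was the highest in 7.27% of all genes on the table. Replicate 2 ranked 3 of 24 in S100a8 and Camp, 4 in Clec5a, 6 in Fpr2, 10 in Trem1, 14 in Ltf and 1 in Lcn2. Other neutrophil genes had their peak in the same sample: of 13 listed ones on the table, 8 were highest in ENT+CTLA4+HER2 replicate 1. Among them were 3 primary-granule enzymes too weak elsewhere to be tested, named here after their values were seen. Mpo (myeloperoxidase) read 105 in replicate 1 and 10.3 in replicate 2, against at most 14.5 in the other 22 samples. Elane (neutrophil elastase) read 83.3 and 14.2, against at most 12.5, and Ctsg (cathepsin G) read 40.8 and 10.3, against at most 8.71. In replicate 2, Mpo and Ctsg were under that sample's negative-control limit of 13.6, and Elane was just above it. Chil3 (chitinase-like 3) read 374 and 56.8, against at most 168, and Cxcr2, the receptor for neutrophil-attracting chemokines, 304 and 119, against at most 125. Replicate 2 ranked 3 of 24 in Cxcr2 and in Csf3r, the G-CSF receptor, which read 241 and 128 in the 2 samples.

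Not all listed neutrophil genes followed. Itgam, Itgb2 and Ncf4, which monocytes and macrophages also express, ranked 3, 4 and 3 of 24 in replicate 1, and Lyz2 ranked 16. The macrophage and monocyte list summed to 2156 and 2230 over 10 genes in the anti-HER2 samples, against 1030 to 3087 in ENT+PD1+CTLA4 and 1728 to 2958 in ENT+CTLA4. Replicate 2 carried instead the highest Lcn2, Csf3 (the granulocyte growth factor G-CSF, 352, against 141 in replicate 1) and Cxcl1 (a chemokine that binds Cxcr2, 4879, against 1364 in replicate 1).

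**Figure D3:**
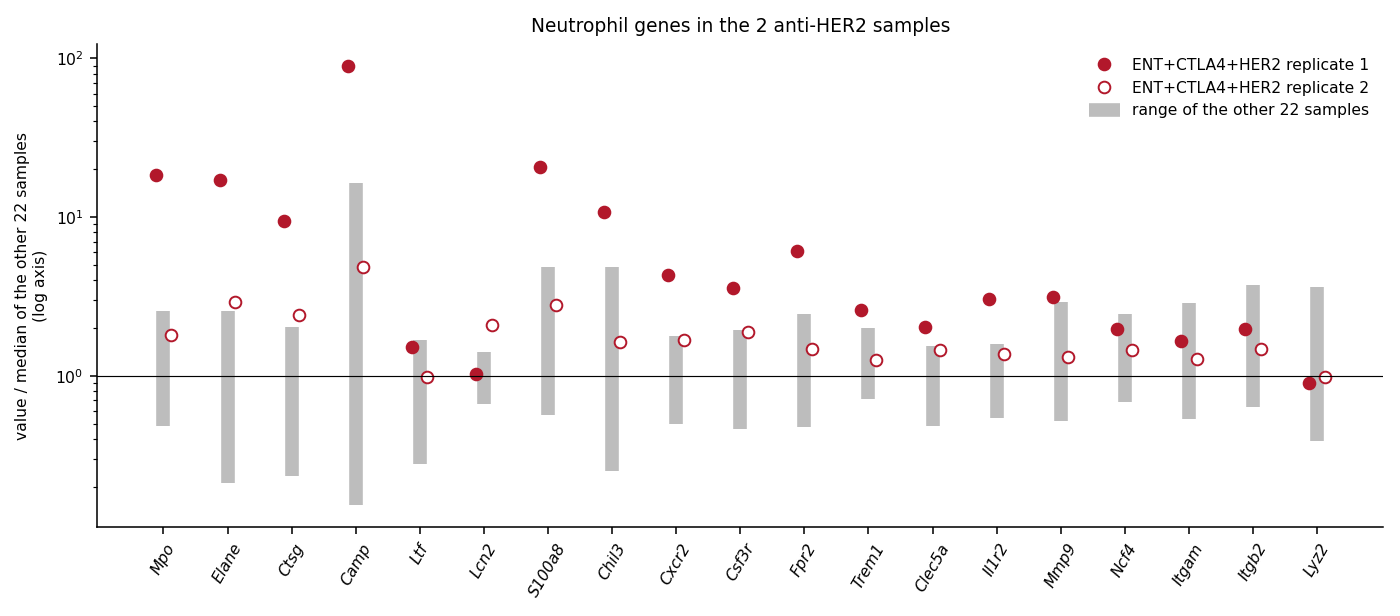
Value in the 2 anti-HER2 samples divided by the median of the other 22 samples (log axis) for the members and other neutrophil genes; grey bars give the range of those 22 samples. Replicate 1 is above the grey bar for Mpo, Elane, Ctsg, Camp, S100a8 and Chil3 among others, and replicate 2 is above it for Lcn2, Elane and Ctsg. The Ctsg and Mpo points of replicate 2 lie under the negative-control limit of that sample.

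ENT+CTLA4 was set against ENT and vehicle across cartridges. Relative to ENT, S100a8, Trem1, Clec5a and Fpr2 were each higher in all 4 ENT+CTLA4 samples than in all 4 ENT samples, as were 12.7% of tested genes. The log2 changes were 1.41 ± 0.54, 0.70 ± 0.29, 1.13 ± 0.28 and 1.05 ± 0.39. Clec5a had the second smallest p of all 621 genes (limma unadjusted p = 0.000637, adjusted p = 0.104). No gene was called here by limma (0%) or by edgeR, 94 genes had an unadjusted p under 0.05, and DESeq2 called 15. Relative to vehicle, Clec5a was higher by 0.90 ± 0.28 and Trem1 by 0.72 ± 0.29 on the log2 scale, with limma adjusted p-values of 0.103 and 0.221. Neither was called, while 1.45% of tested genes were. S100a8, Trem1 and Clec5a did not overlap vehicle, a pattern shared by 4.83% of tested genes. Both comparisons share the ENT+CTLA4 samples. With the cartridge as a block, Clec5a stood at 1.11 relative to ENT and 0.88 relative to vehicle, with limma adjusted p-values of 0.255 and 0.372, and no gene was called in either (115 and 80 at an unadjusted p under 0.05). The block also moved the median log2 change of all tested genes. That median went from 0.04 to 0.44 relative to ENT and from −0.06 to 0.31 relative to vehicle.

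The repeat-titled pair ran on the same cartridge as ENT+CTLA4. Against it Clec5a was higher in ENT+CTLA4 by 0.61 ± 0.34 (limma adjusted p = 0.729), with all 4 samples above both of the pair, which read 92.4 and 142. That pattern held for 16.7% of tested genes. S100a8 and Trem1 overlapped between these arms, at log2 differences of 0.61 ± 0.67 and 0.42 ± 0.36. Limma called 0% of genes in this comparison. The pair was also set against the ENT+PD1 samples of the first cartridge, the only treatment name found on both. There 1.45% of tested genes and no member were called. S100a8 differed by 0.003 ± 0.67 and Clec5a by 0.02 ± 0.34 on the log2 scale, while the median of all tested genes was −0.47. The Clec5a difference averages over a split arm. Both Clec5a values of the pair were above the same-numbered ENT+PD1 replicates (63.2 and 92.3) and below replicates 5 and 6 (180 and 154). For S100a8 the pair read 412 and 1032, against 565 and 523 in ENT+PD1 replicates 1 and 2. The other differences were wider: −0.78 ± 0.52 for Ltf, 0.31 ± 0.27 for Lcn2, −0.24 ± 0.47 for Fpr2 and −0.17 ± 0.36 for Trem1. Camp was under its limit in all samples of both groups.

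Adding anti-PD-1 to ENT and anti-CTLA-4 moved no member past the test. In ENT+PD1+CTLA4 relative to ENT+CTLA4, Clec5a differed by −0.27 ± 0.28, Trem1 by −0.33 ± 0.29 and S100a8 by −0.39 ± 0.54 on the log2 scale, the S100a8 value with a 95% interval from −1.53 to 0.74. No gene was called by limma, edgeR or DESeq2 (0% of those tested), and 10 had an unadjusted p under 0.05. Across cartridges, Clec5a was higher in ENT+PD1+CTLA4 than in ENT by 0.86 ± 0.28 and than in vehicle by 0.63 ± 0.28, with limma adjusted p-values of 0.281 and 0.298. With the cartridge as a block these were 0.84 and 0.60 (adjusted p = 0.309 and 0.438). Limma called 0% of tested genes relative to ENT and 2.09% relative to vehicle, and no member in either. ENT+PD1+CTLA4 and ENT did not overlap in Clec5a, as was the case, in this direction, for 4.19% of tested genes. Relative to ENT+PD1, the 7 log2 differences lay between −0.63, for Ltf, and 0.36, for Clec5a. None was called, against 3.22% of tested genes.

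Within the first cartridge, entinostat alone gave no called gene (0% by limma, 0 by edgeR and DESeq2, 29 at an unadjusted p under 0.05). Fpr2 was lower in ENT than in vehicle by a log2 change of −0.77 ± 0.39 (limma unadjusted p = 0.0624, adjusted p = 0.999). The 2 arms did not overlap in Fpr2, nor in this direction for 5.96% of tested genes, and 2 of the 4 ENT values were under their limits. S100a8 differed by −0.47 ± 0.54 and Trem1 by 0.02 ± 0.29.

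Anti-PD-1 on entinostat left all 7 members uncalled, beside 0.322% of tested genes called. Fpr2 was higher in ENT+PD1 than in ENT by 0.99 ± 0.39 (limma adjusted p = 0.227), and S100a8 by 0.80 ± 0.54 (adjusted p = 0.359). Neither overlapped between these arms, as for 6.12% of tested genes in this direction. The median log2 change of all tested genes was 0.34, and −0.01 after median rescaling, where Fpr2 stood at 0.64. ENT+PD1 replicates 5 and 6 differed from replicates 1 and 2 across cell type lists. Their Lyz2 read 10230 and 16722, against a median of 4544 over all 24 samples. The macrophage and monocyte list summed to 3767 and 5385 in replicates 5 and 6, with 1473 and 1718 in replicates 1 and 2. The T cell list summed to 456 and 581, with 136 and 75.9 in replicates 1 and 2. The epithelial and tumour list, at 7754 and 6710, had its 2 lowest sums of the 24 samples there. The part of this makeup in the member values was not tested. With the samples titled without a letter left out, a choice made after seeing the data, the difference was 0.52 for Fpr2, that for Trem1 turned to −0.20 from 0.45, and that for Clec5a to −0.06 from 0.50. Relative to vehicle, no gene was called in ENT+PD1 (0%, 60 at an unadjusted p under 0.05, 0 by edgeR and DESeq2), and Trem1 differed by 0.46 ± 0.29.

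The interaction asks whether adding anti-PD-1 changed the genes differently with and without anti-CTLA-4, as a difference of 2 within-cartridge differences. The 6 members other than Camp all had a negative estimate, with a median of −0.77 against −0.33 over all tested genes. Fpr2 came nearest at −1.14 ± 0.55 (limma unadjusted p = 0.0532, adjusted p = 0.595). No gene was called by limma, edgeR or DESeq2 (0%), and 42 had an unadjusted p under 0.05. The F test across the 5 arms of 4 samples called 3.22% of genes and no member, Clec5a coming nearest with a limma adjusted p of 0.0749. With the cartridge as a block it called no gene (48 at an unadjusted p under 0.05).

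How the members varied among samples of the same arm was described by Pearson's r of log2(value + 1) after subtracting arm means, over 22 samples without the repeat-titled pair. The samples share arms, cartridges and scaling factors, and no p is given. S100a8 went with Fpr2 (r = 0.85, Spearman's rho 0.79). Without the anti-HER2 arm and ENT+PD1+CTLA4 replicate 1, that r was 0.56. The r of S100a8 with Camp was 0.88, but Camp exceeded its limit in only 5 of the 22 samples, so this value rests on those few. Trem1 went with Fpr2 at 0.70 and with Clec5a at 0.61. Lcn2 ran opposite to Fpr2 (r = −0.76), Clec5a (−0.62) and Trem1 (−0.57). Ltf followed none of the 6, its highest r being 0.32 with Camp.

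**Figure D4:**
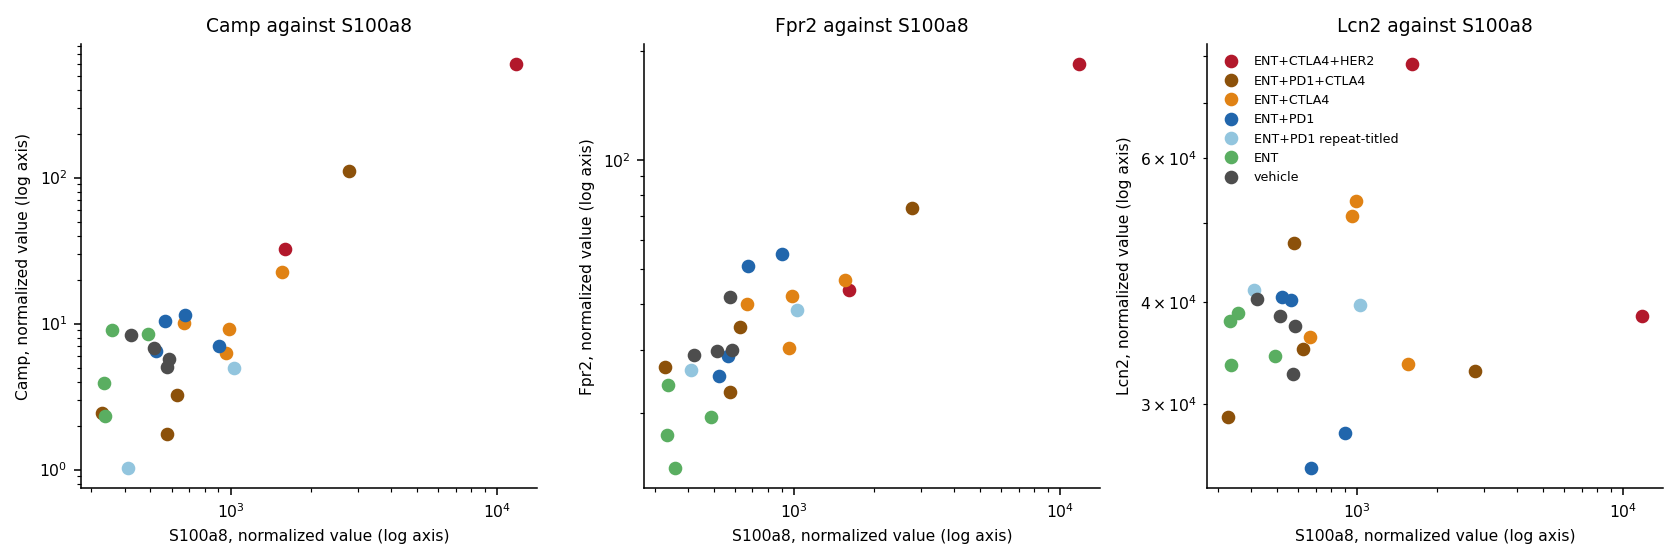
Camp, Fpr2 and Lcn2 against S100a8 in 24 samples, all as normalized values on log axes, coloured by arm. Camp and Fpr2 rise along S100a8 mainly through ENT+CTLA4+HER2 replicate 1 (S100a8 11838) and ENT+PD1+CTLA4 replicate 1 (2776), and Lcn2 shows no such rise.

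The 5 tested genes most like each member by this measure differed between the members. For S100a8 they were Map4k2 (a germinal centre kinase, 0.89), Camp, Fpr2, Cxcr2 (0.83) and Ccl21a (a lymphoid chemokine, 0.80). For Camp they included S100a8, Map4k2 (0.87), Cd40lg (0.77) and Ms4a1 (CD20 of B cells, 0.77), again over values mostly under their limits. Without the anti-HER2 arm and ENT+PD1+CTLA4 replicate 1 these r were 0.60, 0.62, 0.49 and 0.79. For Fpr2 they were Chil3 (0.85), S100a8, Map4k2 (0.82), Ifitm1 (0.82) and Ccl3 (0.80), and without the same samples 0.68, 0.56, 0.69, 0.77 and 0.73. Lymphocyte genes stand beside neutrophil genes here, and ENT+PD1+CTLA4 replicate 1 carried both: its Ms4a1 read 195, the highest of 24. The T cell list summed to 1186 over 8 genes in that sample, the highest of ENT+PD1+CTLA4, where the lowest sum was 74.1. ENT+CTLA4 replicate 6 was alike, with Ms4a1 at 128 and a T cell sum of 631. It also had the highest S100a8 (1555) and Camp (22.5) of its arm, and it stayed in every r given here. The part of those cells in the Camp and S100a8 values was not tested.

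The receptors had other neighbours. For Trem1 they were Ccrl2 (0.89), the cytokine Il1b (0.87), Ccr1 (0.83), Il1r2 (0.82) and Tap2 (0.79). For Clec5a they were the cytokine Il1a (0.89), the inflammasome sensor Nlrp3 (0.87), Csf3r (the G-CSF receptor, 0.82), Ifitm1 (0.80) and Ccrl2 (0.80). Leaving out the anti-HER2 arm and ENT+PD1+CTLA4 replicate 1 kept the first of each near its value, at 0.85 for Ccrl2 with Trem1 and 0.89 for Il1a with Clec5a.

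Lcn2 departed from the label of the group. Its nearest genes were Itga6 (an epithelial integrin, 0.85), Mfge8 (a milk fat globule protein, 0.84), Tfrc (the transferrin receptor, 0.81), Lbp (0.79) and Erbb2 (which encodes HER2, 0.78), and none was a listed neutrophil gene. In ENT+CTLA4+HER2 replicate 2, where Lcn2 peaked, Itga6 read 1585, against 785 in replicate 1. The epithelial and tumour list did not rise as a whole there, with a sum of 9002 against 10576. Erbb2 (581 against 435), Muc1 (33.6 against 25.5) and Egfr (49.1 against 42.5) were also higher in replicate 2. Epcam (5004 against 6623), Cdh1 (1268 against 1602) and Itgb4 (480 against 1062) were lower. For Ltf the nearest were Cd70 (0.80), Cd244 (0.79), Klrb1 (0.75), Gzma (granzyme A of cytotoxic lymphocytes, 0.71) and Ifna4 (an interferon, 0.70). All of these were weak, with medians over the 24 samples from 13.9 (Klrb1) to 21.95 (Gzma), and Ltf itself had a median of 22.3. The negative-control limits of the samples ran from 8.54 to 25.3, so these r rest on values near background. The part of shared background and scaling in them was not tested.

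Neutrophil genes outside the members gave no call in any of the 14 comparisons of 2 arms. Of 20 listed, 13 were on the table and 9 were tested. In ENT+CTLA4+HER2 relative to ENT+PD1+CTLA4, 8 of the 9 had a positive log2 change, with a median of 0.97 against 0.18 over all tested genes. Csf3r differed by 1.24 ± 0.36, Cxcr2 by 1.25 ± 0.38 and Chil3 by 2.38 ± 0.73, with limma adjusted p-values of 0.0664, 0.0703 and 0.0703. The 2 anti-HER2 samples were unlike in these genes. Csf3r, Cxcr2 and Chil3 read 241, 304 and 374 in replicate 1, and 128, 119 and 56.8 in replicate 2. In ENT+CTLA4 relative to ENT, 8 of 9 were positive, with a median of 0.69 against 0.04, and Cxcr2 differed by 1.15 ± 0.31 (limma adjusted p = 0.109). In ENT+PD1 relative to ENT, all 9 tested were positive, with a median of 0.80 against 0.34. The list holds genes that macrophages also express, among them Lyz2, at 10230 and 16722 in ENT+PD1 replicates 5 and 6. The part of those 2 samples in this result was not tested.

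Of 12 genes for neutrophil recruitment and growth, 10 were tested and 1 was called: Csf3 rose in ENT+CTLA4+HER2 relative to ENT+CTLA4 by 1.26 ± 0.32 on the log2 scale (limma adjusted p = 0.0472). The mean of Csf3 was 247 in the anti-HER2 arm and 95.4 in ENT+CTLA4. Replicate 2 of the anti-HER2 arm read 352, while replicate 1, at 141, lay within the range of the other 22 samples (up to 149). Partners of the members, such as the S100a8 receptor Tlr4 and the Fpr2 ligand Anxa1, gave no call among 7 tested of 9 on the table. Anxa1 read 4326 and 2480 in ENT+CTLA4+HER2, with 2647 to 5475 in the other 22 samples. The epithelial and tumour list, 7 genes, summed to 9002 and 10576 in ENT+CTLA4+HER2, against 8658 to 11780 in ENT+PD1+CTLA4 and 9134 to 11483 in ENT+CTLA4. Its integrin Itgb4 read 1062 and 480 in ENT+CTLA4+HER2 and fell by 1.00 on the log2 scale relative to ENT+CTLA4 (limma adjusted p = 0.0472). Both this call and that of Csf3 were lost under median rescaling, quantile normalization or the replicate block, with only the compared arms or only lettered titles, and without ENT+CTLA4 replicate 5 or 6, where limma called 0 genes in this comparison.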

How the data were processed

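RNA of 24 samples in 7 groups was counted on an nCounter instrument, with 750 endogenous and 20 housekeeping genes, 8 negative and 6 positive control probes. The deposited values are normalized signal: the geometric mean of the housekeeping genes was 346.9 in all samples. Dividing by 1 factor per sample returned whole numbers for 100% of values (tolerance 0.05) apart from 82 values at exactly 1, so counts could be recovered from the deposited table, and count tests were run on them as alternatives. Control probes are deposited as unscaled counts per the file headers. Per the submitters' processing notes limma was used. Its role and version, like the normalization, were not given in the sources used here. Groups came from sample titles.

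Values were taken as log2(value + 1), which understates changes of weak genes. Genes at 20 or more in at least 4 samples (621) were fitted in limma 3.58.1 (lmFit, eBayes with trend; R 4.3.3), over 22 samples in 6 groups, and over all 24 in 7 groups for comparisons with the repeat-titled pair. A gene was called at an adjusted p (Benjamini-Hochberg over all 621) under 0.05. edgeR 4.0.16 (quasi-likelihood) and DESeq2 1.42.0 were run on the recovered counts. The fits were tested on simulated data. No 2 samples held identical values. Named were all 7 members, the 5 genes most like each within arms, and at most 4 genes per marker list (those called, or the strongest); the other listed genes given were named after their values were seen. Of the genes this rule selects, 1 is not reported here. The members and lists were chosen with earlier results of these data known. Alternatives were scaling, pseudocount, floor, filter, samples in the fit, replicate and cartridge blocks, and each sample left out. Intervals and floors for counts are not given, and the number of samples limits the precision.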

Additional observations from a re-analysis of the deposited data

Results flagged for a closer look

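Of 35 sets of 4 samples (7 genes in 5 arms), 4 held a sample far from the other 3 by a test of the gap over the range. For normally distributed values chance gives about 1 in 20. The test used unlogged values, all 4 flagged samples were the highest of their set, and the genes share samples. That rate is therefore only a rough guide here. In ENT+PD1+CTLA4, replicate 1 stood apart in S100a8, with 2776 against 629 in the next sample (gap over range 0.877), and in Camp, with 110 against 3.24 (0.986), the other 3 Camp values being under their limits. The same sample had the highest Ms4a1 of all 24. In ENT, replicate 4 stood apart in S100a8 with 491 against 357 in the next (0.849), and in vehicle, replicate 3 in Fpr2 with 42.0 against 30.0 (0.93). The 2 samples of ENT+CTLA4+HER2 were too few for such a test.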

How the results depend on the processing

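Of 52 member changes larger than their SE, recomputed 1027 times, 979 kept their direction and their side of the threshold, 9 kept the direction and were no longer called, 22 kept it and became called, and 17 reversed. Only the S100a8 change in ENT+CTLA4+HER2 against ENT+PD1+CTLA4 was called at the start. All 9 losses are therefore of that call, and for the other changes keeping their side meant staying uncalled. Except where stated, causes were not tested.

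S100a8 in ENT+CTLA4+HER2 against ENT+PD1+CTLA4 was lost (0 members called) under median rescaling, quantile normalization, compared groups only and lettered titles only, with limma adjusted p-values of 0.0552, 0.0684, 0.430 and 0.296. The replicate numbers did not pair the samples (40 pairs, median correlation −0.033, 14 over 0.1, from −0.453 to 0.634). With the replicate block the call was lost too (0 members, log2 2.43, adjusted p = 0.0839), and the block changed no other call of a member. DESeq2 called 2 members (S100a8 and Fpr2) among 24 genes in this comparison. Leaving out each sample gave 0 to 3 members among 0 to 35 genes, with 3 of 35 without ENT+PD1+CTLA4 replicate 1 and 3 of 8 without ENT+CTLA4+HER2 replicate 2.

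Against ENT+CTLA4, where limma called 0 members and 14 genes, the anti-HER2 arm gave 1 member among 22 genes with a floor of 20 (Camp), 2 among 16 by edgeR and 2 among 23 by DESeq2. With a sample left out it gave 0 to 3 members, 3 among 6 genes being without ENT+CTLA4+HER2 replicate 2 (S100a8, Camp and Fpr2). Against vehicle, ENT+CTLA4 gave 1 among 9 genes by edgeR (Clec5a) and 2 among 21 by DESeq2 (Clec5a and Trem1). ENT+CTLA4 against ENT gave 4 among 46 genes with only these arms in the fit (S100a8, Trem1, Clec5a and Fpr2) and 1 among 15 by DESeq2. The F test gave 1 among 9 genes by edgeR, 3 among 48 by DESeq2 and 0 to 1 with a sample left out (1 among 14 without ENT+PD1 replicate 1). Without ENT+CTLA4+HER2 replicate 1, Lcn2, whose peak is replicate 2, had a log2 change of 1.14 against ENT+PD1+CTLA4 (adjusted p = 0.0404, 1 among 22 genes). Fits without either anti-HER2 sample leave that arm 1 sample, assumed to vary like the other arms, so they do not test the arm. Calls of Camp rest on a gene that passed the filter through its high samples.

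No reversal touched a called value. Ltf reversed in ENT against vehicle (−0.64 to 0.0825 over samples left out, positive without ENT replicate 2) and in ENT+PD1 against ENT (−0.0372 by quantile normalization; −0.0027 to 0.72 over samples left out, negative without ENT replicate 2). With the cartridge block it reversed in ENT+CTLA4 (0.16) and ENT+PD1+CTLA4 (0.24) against vehicle, and in ENT+PD1+CTLA4 against ENT+PD1 (0.16; 0.0867 by quantile normalization). Lcn2 reversed by quantile normalization in ENT+PD1+CTLA4 against ENT+CTLA4 (0.17) and in ENT+CTLA4+HER2 against ENT+PD1+CTLA4 (−0.083), and with the cartridge block in ENT+CTLA4 against ENT (−0.0729). In ENT+CTLA4+HER2 against ENT+CTLA4 it ran from −0.15 without ENT+CTLA4+HER2 replicate 2 to 0.88 without replicate 1. Lettered titles only turned Trem1 in ENT+PD1 against vehicle (−0.19) and, against ENT, Trem1 (−0.20) and Clec5a (−0.0562). S100a8 in ENT+PD1+CTLA4 against vehicle ran from −0.0785 without ENT+PD1+CTLA4 replicate 1 to 0.95. Against the repeat-titled pair, Camp, mostly under its limits, in ENT+PD1+CTLA4 ran from −0.0202 without the same sample to 2.02, and Trem1 in ENT+CTLA4 from −0.0136 without the pair's replicate 1 to 0.86.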
